A study of Mus musculus with 13 samples.

Results

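The genes described here encode the subunits of the mitochondrial respiratory chain and of ATP synthase. They were taken by symbol from the deposited expression table: symbols starting with Ndufa, Ndufb, Ndufc, Ndufs, Ndufv, Uqcr or Atp5, or with Cox and a number, and Sdha, Sdhb, Sdhc and Sdhd. The rule took 94 of 15176 genes. Of these, 80 encode subunits or their tissue isoforms: 35 in complex I, 4 in complex II, 8 in complex III, 18 in complex IV and 15 in complex V. Another 10 encode assembly factors. The last 4 were Cox7a2l, which joins complexes into supercomplexes, and Atp5s, Atp5sl and Cox4nb, which were counted outside the complexes.

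The respiratory chain sits in the inner mitochondrial membrane. Complex I (NADH dehydrogenase) and complex II (succinate dehydrogenase) pass electrons to ubiquinone, complex III passes them to cytochrome c, and complex IV (cytochrome c oxidase) passes them to oxygen. Complexes I, III and IV pump protons, and complex V (ATP synthase) uses the proton gradient to make ATP. Several complex IV subunits, and subunits of complexes I, III and V, are encoded by the mitochondrial genome, and those genes are not analysed here. Pluripotent cells are known for a high rate of glycolysis beside active respiration.

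RNA had been sequenced in 13 mouse libraries that follow a chemical route from fibroblasts to pluripotent stem cells. Mouse embryonic fibroblasts (MEF, n = 3) of a C57xICR cross were untreated. From the same strain came Oct4-GFP-negative cells (n = 2) given the mix coded VC6TF, and 2 kinds of Oct4-GFP-positive cells given VC6TF with Z, clusters and colonies, with 1 library each. These treated cells were picked for RNA, and the GFP reports the Oct4 gene by design. Embryonic stem cells (ESC, n = 4) were the untreated R1 line of strain 129, and the chemically induced pluripotent lines 6 and 11 (CiPSC, n = 2, C57xICR) had been derived with the mix coded VC6TFMB with Z. ESC and CiPSC were grown on feeder layers of inactivated MEF. All ESC libraries came from 1 line, and strain and cell state cannot be told apart between ESC and the other groups. No label says that libraries of 1 group came from separate cultures, so the p-values measure the spread between these libraries, which may be technical.

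Values are RPKM, read counts divided by gene length in kilobases and by library size. They came on more than 1 scale, so 3 sets of libraries were kept apart. The first set holds the clusters, MEF 1 and 2, ESC 1 and 2 and the 2 GFP-negative libraries. The second holds MEF 3, the colonies and ESC 3. In these 10 libraries the kilobases are those of the whole gene span, introns included. The third set, CiPSC 6, CiPSC 11 and ESC 4, was taken to be on an exonic length scale and was compared only within itself. Estimated depth was 8.9 to 17.7 M reads in the 10 gene-span libraries, and no depth could be read from the others.

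Labels were compared with marker genes. Summed over 6 pluripotency markers, the gene-span level was 839 to 1003 RPKM in ESC 1 to 3, 647 in the colonies and 0.299 to 2.14 in MEF. In the clusters the sum was 1.2 RPKM, and Pou5f1 (the Oct4 gene) was at 0.26 RPKM against 0.191 and 0.429 in the GFP-negative libraries, so the label of the clusters was not matched by Oct4 mRNA. The colonies had Pou5f1 at 124 RPKM but Nanog at 0.0418 and Sox2 at 2.8. Of 6 macrophage and blood markers, 4 were measured, and their sum was 188 RPKM in MEF 3 against 18.1 and 29.3 in MEF 1 and 2.

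Depth behind the genes differed between libraries. The median gene of the chain had an estimated 97 reads in GFP-negative replicate 1 and 104 in the clusters, against 254 to 765 in the other 8 gene-span libraries. In GFP-negative replicate 1, 47 of 93 genes with a known length had fewer than 100 estimated reads. The 2 GFP-negative libraries differed by 2-fold or more in 35 of 90 chain genes (38.9%), against 23.2% of all 10647 genes tested. Between MEF 1 and 2 it was 8 genes (8.89%, against 3.26%), and between ESC 1 and 2 it was 17 (18.9%, against 6.72%). Exact 95% Poisson bounds, which cover counting error only, lay apart between the GFP-negative libraries for 75 of 89 chain genes (84.3%) and 77.3% of all genes. For MEF 1 and 2 these shares were 59.6% and 63.9%, and for ESC 1 and 2 they were 70.8% and 69%. By the 2-fold count, replicates of each of the 3 groups differed on chain genes more often than on genes at large. By these bounds, the chain share was above that of all genes for the GFP-negative pair and about equal to it for ESC. For MEF it was below. The 2-fold count was made on log2(RPKM + 1), which understates differences of low genes. In GFP-negative replicate 1 the median was 0.681 RPKM over all genes tested and 1.35 over the chain genes.

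Of the 94 genes, 90 reached 1 RPKM in at least 2 libraries and were tested, and the 4 others were Cox4i2, Cox7b2, Cox8c and Atp5s. Tests used limma on log2(RPKM + 1), with a term for the library set and Benjamini-Hochberg adjustment over all 10647 genes. A gene was called when its adjusted p was under 0.05 and its log2 change was 1 or more in either direction.

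In ESC, 6 chain genes were called higher and 2 lower than in MEF, Uqcrh and Cox6a2. The called share was 8.89% of the 90 genes, and the background share over all genes tested was 18.3%. By adjusted p alone it was 13 genes (14.4%, background 32.1%). The higher genes made up 6.67% of the chain genes against a background of 8.97%, and the lower genes 2.22% against 9.33%. Most of the other genes leaned upward without passing the test: 72 of 90 estimates were above 0, as were 6443 of all 10647 genes. The median log2 change was 0.33, against a median of 0.14 over all genes. By complex the median log2 change was 0.28 for complex I, 0.00 for complex II, 0.36 for complex III, 0.35 for the ubiquitous subunits of complex IV and 0.61 for complex V. In 34 genes (37.8%, background 37%) every ESC library exceeded every MEF library of its own set, and in 4 genes (4.44%, background 23.1%) every ESC library was below. Those 4 were Atp5o, Cox6a2, Ndufa8 and Uqcrh. Cox6a2 passed the filter only through MEF 2 and MEF 3, so its place among them supports nothing. In bulk samples such as these, fewer cells of a type and less RNA per cell cannot be told apart.

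**Figure D1:**
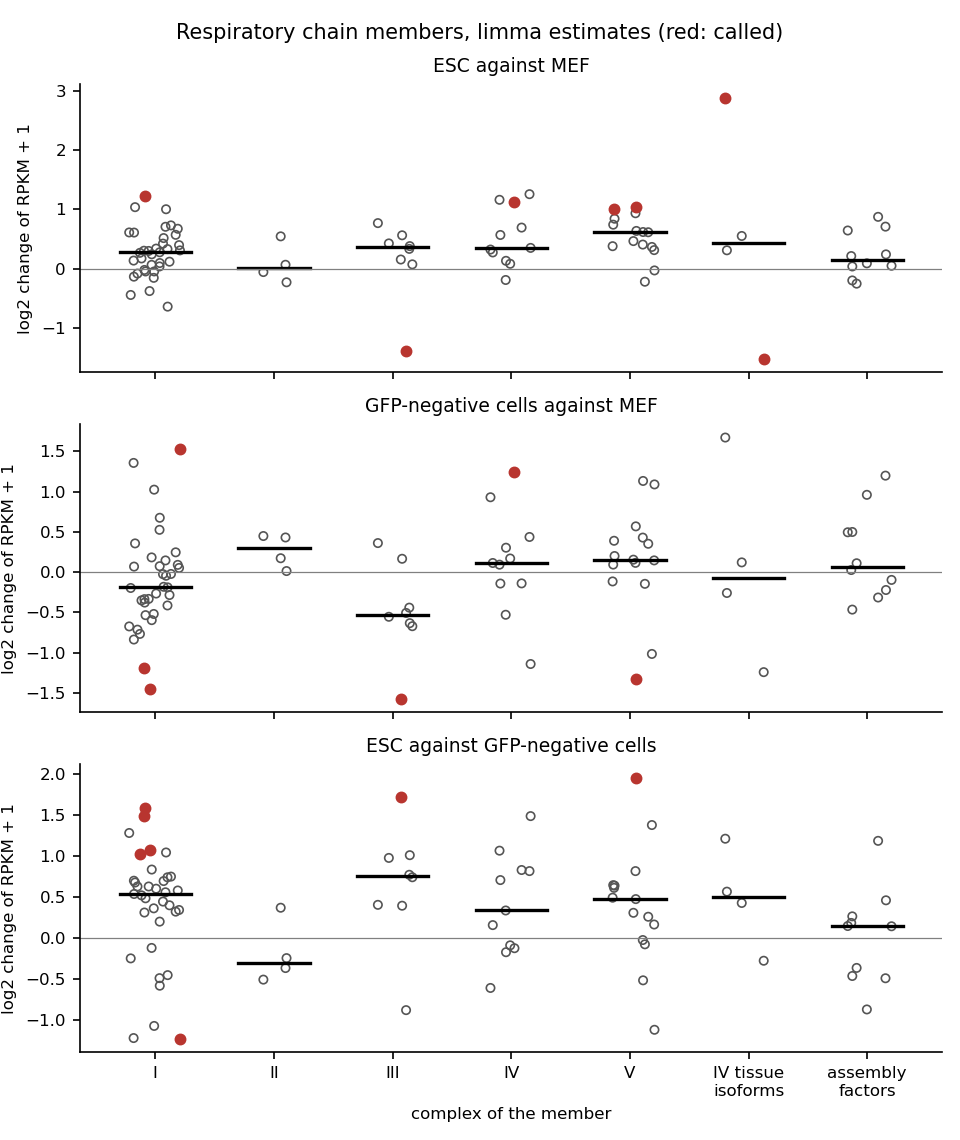
Log2 change of RPKM + 1 from limma for each tested chain gene (circles), by complex, in the 3 comparisons among MEF, GFP-negative cells and ESC; the black bar is the median of the group and filled red circles are called genes. For ESC against MEF the medians run from 0.00 in complex II to 0.61 in complex V, and Cox6b2 is the single point near 2.88.

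Both large subunits of the catalytic head of ATP synthase were higher in ESC. Atp5b, the catalytic beta subunit, was at 79.4, 80.8 and 75 RPKM in MEF 1, 2 and 3, and at 157, 138 and 183 in ESC 1, 2 and 3. The 2 groups did not overlap, and the level in MEF was nearly constant. That is a log2 change of 1.0 (SE 0.16, limma adjusted p 0.00335). Atp5a1, the alpha subunit that alternates with beta in the same ring, was at 28.9, 34.1 and 48.7 RPKM in MEF and at 66.9, 61 and 108 in ESC. Again the groups did not overlap, although MEF 3 stood above the other MEF libraries. Its log2 change was 1.05 (SE 0.18, limma adjusted p 0.00467). Atp5c1, the gamma subunit of the central shaft, was at 2.61, 2.51 and 2.82 RPKM in MEF and 3.7, 6.29 and 5.6 in ESC, and it was not called. Neither Atp5a1 nor Atp5b was called within the first set alone, without the library-set term, or with upper-quartile scaling or quantile normalization. The call of Atp5a1 held in 19 of 24 alternative analyses and that of Atp5b in 17.

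Among the 3 genes for subunit c, whose mature protein forms the rotating ring, none was called. Atp5g3 had the highest level on the gene-span scale, 26.6, 42.1 and 53.8 RPKM in MEF and 39.8, 56.5 and 98.4 in ESC. Atp5g1 was at 8.05, 2.92 and 5.78 in MEF and at 5.23, 4.75 and 13.4 in ESC, so the groups overlapped. Atp5g2 was at 1.71, 1.89 and 8.25 in MEF and at 3.24, 5.18 and 14.9 in ESC. Within each set Atp5g2 was higher in every ESC library than in MEF, while Atp5g3 overlapped in the first set.

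Cox8a was the only ubiquitous subunit of complex IV called in ESC against MEF. It encodes a small structural subunit, and it stood at 39.4, 44.9 and 36.5 RPKM in MEF and 112, 102 and 60.9 in ESC. The groups did not overlap, and ESC 3 was the lowest of the ESC libraries. This gave a log2 change of 1.12 (SE 0.20, limma adjusted p 0.00478). Cox4i1, the ubiquitous isoform of the regulatory subunit 4, was at 12.1, 9.32 and 38.3 RPKM in MEF and 12.6, 14.2 and 49.3 in ESC. Its level differed more between the sets than between MEF and ESC. So did that of Cox6a1, at 18.1, 16.5 and 58.2 RPKM in MEF and 21.1, 19.8 and 50 in ESC.

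**Figure D2:**
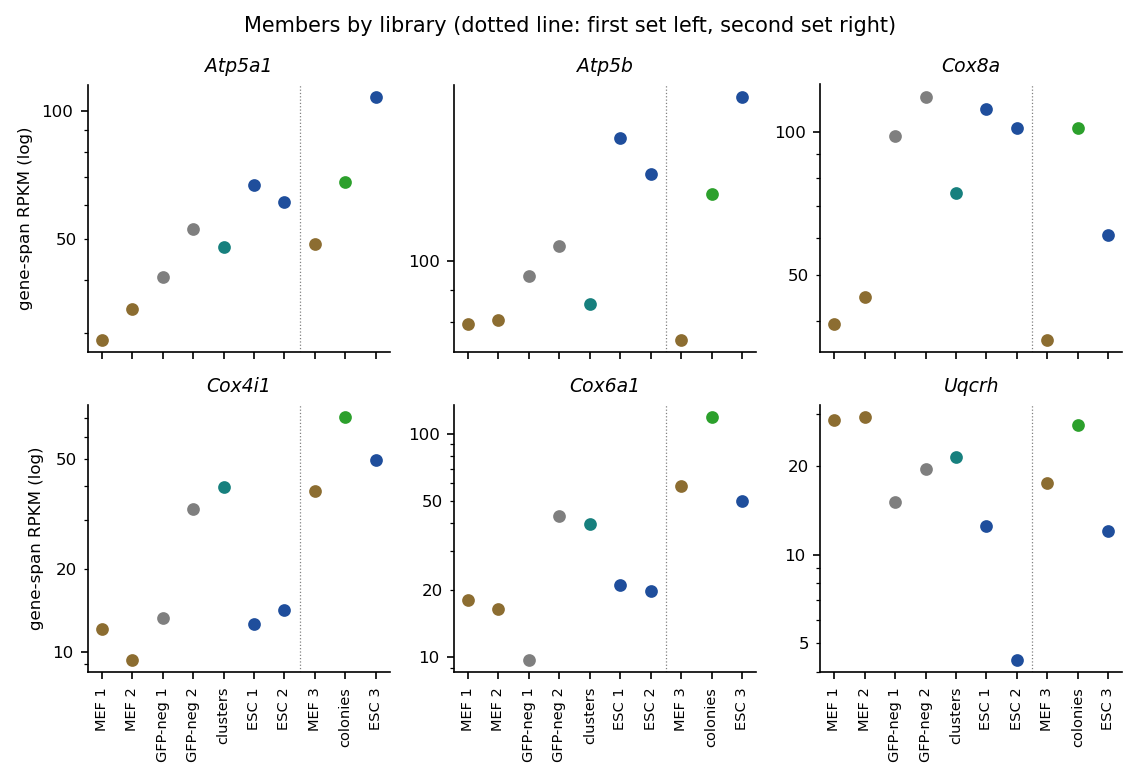
Gene-span RPKM (log axis) of 6 chain genes in the 10 gene-span libraries, coloured by group, with the first set left of the dotted line and the second set right of it. Atp5b and Atp5a1 are highest in the ESC libraries of each set, Cox8a is low in all MEF libraries, and Cox4i1 and Cox6a1 differ more between the sets than between MEF and ESC.

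Complex I and complex III each had 1 called subunit. Ndufc1, a small accessory subunit of the membrane arm of complex I, was at 0.665, 1.91 and 2.75 RPKM in MEF and at 4.69, 4.96 and 5.71 in ESC. No library of one group reached the other. Its estimated log2 change was 1.22 (SE 0.31, limma adjusted p 0.0215). The call held in 17 of 24 alternative analyses. It was lost with a pseudocount of 0.1 or 0.01 and within the first set alone, among others. Uqcrh, the acidic hinge protein that helps cytochrome c dock on complex III, was lower in ESC. It stood at 28.7, 29.4 and 17.6 RPKM in MEF and at 12.5, 4.38 and 12 in ESC, again without overlap. The log2 change was -1.39 (SE 0.40, limma adjusted p 0.0344), and with the 10 gene-span libraries alone it was not called.

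The core subunits of complexes I and III, which carry the redox centres or anchor them, were not called. Ndufs1, the largest iron-sulfur subunit, was at 1.3, 1.21 and 1.5 RPKM in MEF and 2.56, 1.94 and 2.97 in ESC, so the groups did not overlap. Ndufv1, which binds NADH, was at 8.05, 6.67 and 15.8 in MEF and at 8.68, 11.3 and 27.6 in ESC. Within each set both genes were higher in ESC than in MEF. Other core subunits did not share this order: Ndufs3 was at 2.46, 2.72 and 2.31 in MEF and 1.22, 2.59 and 2.89 in ESC, and Ndufs8 at 5.89, 1.38 and 10.2 in MEF and 0.801, 6.03 and 9.9 in ESC. Their log2 changes were -0.15 (SE 0.39) and -0.13 (SE 0.57). Ndufs7, at 0.67, 0.506 and 5.7 in MEF and 0.921, 0.872 and 7.73 in ESC, and Ndufv2, at 0.648, 0.819 and 1.84 in MEF and 1.41, 1.94 and 3.86 in ESC, were higher in ESC within each set. Uqcrc1, a core protein of complex III, was at 2.94, 2.07 and 8.99 RPKM in MEF and 3.52, 3.04 and 20.3 in ESC. Uqcrc2 was at 1.92, 1.74 and 3.04 in MEF and 1.63, 2.75 and 5.57 in ESC. Uqcrfs1, the Rieske iron-sulfur protein, was at 12, 12.3 and 6.6 in MEF and 16.6, 13 and 11.8 in ESC. Uqcrc1 and Uqcrfs1 were higher in ESC than in MEF within each set.

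Complex II, which is also an enzyme of the citrate cycle, showed no call among its 4 subunits. Sdha, the flavoprotein that oxidises succinate, was at 3.92, 4.37 and 5.11 RPKM in MEF and 5.48, 7.16 and 8.49 in ESC, and its groups did not overlap. Sdhb, the iron-sulfur subunit, was at 0.708, 1.36 and 4.33 in MEF and 0.706, 0.978 and 4.65 in ESC. Of the membrane anchors, Sdhc was at 4.57, 3.27 and 3.11 in MEF and 3.33, 2.42 and 3.11 in ESC, and Sdhd at 13.8, 10.2 and 9.35 in MEF and 13.7, 7.74 and 14.3 in ESC. Sdhb, Sdhc and Sdhd overlapped between the groups.

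The tissue isoforms of complex IV held the widest changes. Cox6b2, the testis isoform of a subunit on the intermembrane side, was at 0, 0.26 and 5.44 RPKM in MEF and at 7.46, 10.1 and 33.8 in ESC. These are an estimated 0, 6 and 68 reads in MEF and 129, 159 and 441 in ESC, and within each set ESC stood above MEF. Its log2 change was 2.88 (SE 0.55, limma adjusted p 0.0068), and the call held in all 24 alternative analyses. The 4 germline markers summed to 0.368, 0.188 and 0.427 RPKM in MEF and 1.83, 0.778 and 6.14 in ESC. Among them Dazl was called higher, at 0, 0 and 0.0146 RPKM in MEF and 0.894, 0.512 and 4.62 in ESC, and the part of germline-like expression in the result was not tested. Cox6b1, the ubiquitous partner, was at 3.18, 4.47 and 10.5 RPKM in MEF and 4.35, 4.81 and 13.9 in ESC, and was not called. Among the GFP-negative libraries Cox6b2 stood at 0.695 and 7.82 RPKM, so 1 of the 2 reached the level of ESC 1.

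Cox6a2, the heart and skeletal muscle isoform of subunit 6a, was at 0.635, 1.33 and 5.81 RPKM in MEF (7, 22 and 53 estimated reads) and at 0, 0 and 0.107 in ESC (0, 0 and 1 reads). It was also at 0 in both GFP-negative libraries and in the clusters, and had 0 estimated reads in the colonies. It reached 1 RPKM in MEF 2 and MEF 3 alone, so it was tested only because it was high in MEF, and its place among the 2 lower calls supports nothing. Without ESC replicate 3 it was not called. The 7 striated muscle markers summed to 2.77, 2.86 and 4.14 RPKM in MEF and 1.55, 1.84 and 4.54 in ESC, and the part of muscle-like cells in the result was not tested. Cox6a1, the ubiquitous partner, is described above and was present in all libraries.

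The other tissue isoforms were low or followed the library sets. Cox7a1, the muscle isoform of subunit 7a, was at 0.0454 and 0.243 RPKM in MEF 1 and 2 and 0.0405 and 0.133 in ESC 1 and 2, but at 1.29 in MEF 3, 4.18 in the colonies and 6.93 in ESC 3. Cox7a2, its ubiquitous partner, was at 5.39, 5.45 and 9.35 in MEF and 7.92, 6.32 and 20.3 in ESC. Ndufa4l2, a paralog of the complex IV subunit Ndufa4 that is known to be induced in low oxygen, was at 18 RPKM in MEF 3 and 15.6 in the colonies but 2.57 in ESC 3. In the first set it was between 0 and 1.57 RPKM in every library but ESC 2, which had 6.12. Cox4i2, the lung isoform, was at 1.31 RPKM or less in the 10 gene-span libraries, and Cox8c, a testis isoform, at 0.202 or less. Of the ubiquitous partners, Cox7b was at 11.6, 15.5 and 4.08 RPKM in MEF and 10.7, 16.5 and 9.65 in ESC, and Ndufa4 at 5.02, 5.96 and 9.07 in MEF and 8.51, 3.14 and 13.1 in ESC, so both overlapped in the first set.

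**Figure D3:**
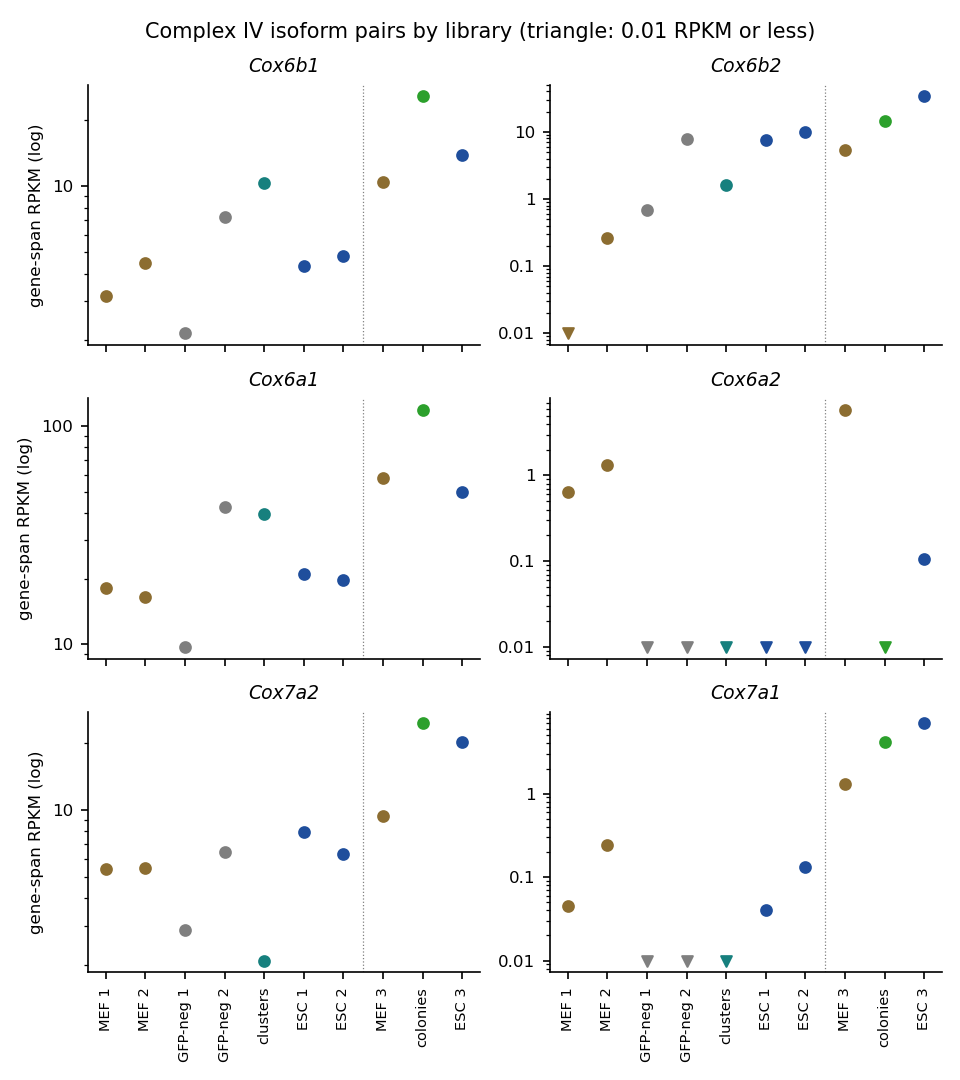
Gene-span RPKM (log axis) of 3 pairs of complex IV isoforms in the 10 gene-span libraries, ubiquitous form left and tissue form right; triangles mark 0.01 RPKM or less. Cox6b2 is above 7 RPKM in every ESC library, Cox6a2 is measurable in the 3 MEF libraries and at 0.107 RPKM in ESC 3, and Cox7a1 is above 1 RPKM only in the second set.

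The last called gene, Cox4nb, is named for lying beside Cox4i1 and encodes a protein of the endoplasmic reticulum membrane complex. It was at 2.54, 3.04 and 3.18 RPKM in MEF and at 6.47, 9.21 and 9.06 in ESC, without overlap. Its log2 change was 1.23 (SE 0.20, limma adjusted p 0.00347). None of the 10 assembly factors was called in ESC against MEF. Without MEF replicate 1 the count of called chain genes was 5 in place of 8. Within the first set alone it was 3, and the shares over all genes in these fits are not given here.

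Between the compound-treated GFP-negative cells and MEF, 2 chain genes were higher and 4 were lower. That is 6.67% of 90, against a background of 9.14% (4.09% higher and 5.05% lower). The 90 estimates were evenly split, 46 above and 44 below 0, with a median log2 change of 0.02 against -0.07 over all genes. Of all 10647 genes, 4557 were above and 6090 below 0. By complex the median was -0.19 for complex I, 0.30 for complex II, -0.53 for complex III, 0.11 for complex IV and 0.16 for complex V. These calls rest on few libraries: with the 10 gene-span libraries alone 1 gene was called (Ndufb9), and within the first set alone 1 (Cox8a). Fits without a GFP-negative library leave 1 in the group, and their counts are not given here. The shares over all genes in the alternative fits are not given either. Without CiPSC line 6, CiPSC line 11 or ESC replicate 4, libraries that this contrast does not compare, the counts were 1, 2 and 1. Without MEF replicate 1 or 2 they were 1 and 2.

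Cox8a was higher, at 98.5 and 119 RPKM in the GFP-negative libraries against 39.4, 44.9 and 36.5 in MEF. The groups lay far apart, and the GFP-negative levels were near those of ESC 1 and 2. The log2 change was 1.25 (SE 0.23, limma adjusted p 0.0146). Ndufb9, an accessory subunit of the complex I membrane arm, was at 16.2 and 18.1 RPKM against 3.92 and 6.88 in MEF 1 and 2. MEF 3, in the other set, had 12.2. For Ndufb9 the log2 change was 1.53 (SE 0.29, limma adjusted p 0.0163).

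The genes that were lower came from complexes I, III and V. Ndufa8, an accessory subunit of complex I, was at 0.0552 and 0.777 RPKM in GFP-negative cells against 4.08 and 2.08 in MEF 1 and 2 (log2 change -1.45, SE 0.33, limma adjusted p 0.0306). Ndufb3, another accessory subunit, was at 0.688 and 1.05 against 3.56 and 2.98 (log2 change -1.18, SE 0.23, limma adjusted p 0.017). Within the first set neither gene overlapped between the groups. Uqcrb, the subunit of complex III close to the ubiquinone site, was at 0.897 and 2.64 RPKM against 6.72 and 9.43 (log2 change -1.57, SE 0.41, limma adjusted p 0.0467). Atp5j2, subunit f of the membrane part of ATP synthase, was at 0.982 and 1.16 against 5.69 and 3.3 (log2 change -1.32, SE 0.26, limma adjusted p 0.0195). Both were lower in each GFP-negative library than in any MEF library. Of 24 alternative analyses, the call held in 17 for Atp5j2, 15 for Ndufb3, 14 for Ndufa8 and 11 for Uqcrb. For the higher genes Cox8a and Ndufb9 it held in 18 and 20. Ndufa8 had an estimated 8 reads in GFP-negative replicate 1.

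Other subunits differed more between the 2 GFP-negative libraries than between the groups. Uqcrc1 was at 0.513 and 7.37 RPKM in them, Ndufv1 at 1.87 and 16.2, and Atp5g1 at 0.0662 and 5.35. The order was the opposite for Cox5b, at 32.6 and 4.13 RPKM, and for Sdhd, at 27.1 and 8.02. MEF 1 and 2 fell inside these ranges for Uqcrc1, Ndufv1 and Sdhd. MEF 1 lay just above the range for Cox5b, at 33.9 RPKM, and further above it for Atp5g1, at 8.05.

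Against the GFP-negative cells, ESC had 8 chain genes higher and 1 lower. The share was 10% of 90 and the background 24.2% (14.8% higher and 9.35% lower). Of the 90 estimates, 65 were above 0, as were 6472 of all 10647 genes. The median log2 change was 0.44 against 0.19 over all genes, or 0.31 against 0.02 with quantile normalization. Complex III had the highest median, 0.76, and complex II the lowest, -0.30. The MEF and GFP-negative comparisons with ESC share the ESC libraries, so their values are given side by side and not as support for one another. Leaving out a GFP-negative library leaves 1 in that group, and counts of called genes from such fits are not given here.

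Of the 9 called genes, 4 were the subunits with low GFP-negative values already given. Atp5j2 was at 6.37 and 7.19 RPKM in ESC 1 and 2, above all MEF libraries, and its log2 change against GFP-negative cells was 1.96 (SE 0.26, limma adjusted p 0.00147). Ndufb3 was at 5.05 and 3.44 (log2 change 1.49, SE 0.23, limma adjusted p 0.00252). Uqcrb was at 6.85 and 6.27 (log2 change 1.73, SE 0.41, limma adjusted p 0.0146), and Ndufa8 at 1.98 and 1.51 (log2 change 1.08, SE 0.33, limma adjusted p 0.0395). All 4 stood higher in both first-set ESC libraries than in both GFP-negative libraries. Ndufb9 was the gene that was lower, at 8.14 and 5.63 RPKM (log2 change -1.23, SE 0.29, limma adjusted p 0.0151).

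The other 4 were not called in GFP-negative cells against MEF. Ndufc1 was at 1.45 and 0.337 RPKM in GFP-negative cells, below every ESC library (log2 change 1.59, SE 0.36, limma adjusted p 0.0128). Ndufv3, an accessory subunit of the NADH-oxidising arm, was at 0.516 and 1.29 against 2.51 and 3.9 in ESC 1 and 2 (log2 change 1.03, SE 0.31, limma adjusted p 0.0346). Cox4nb was at 2 and 1.45 RPKM (log2 change 1.70, SE 0.23, limma adjusted p 0.00154). Atp5sl was at 0.368 and 0.205 against 1.9 and 2.21 (log2 change 1.21, SE 0.17, limma adjusted p 0.00196). For ESC against GFP-negative cells, the calls of Atp5j2, Cox4nb and Ndufc1 held in all 24 alternative analyses. The call of Ndufa8 held in 10 of 24 and that of Ndufv3 in 12.

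The clusters are 1 library and were compared without a test. Against the mean of the GFP-negative libraries, 13 of 90 chain genes were 2-fold or more higher (14.4%, background 11.4%) and 13 were 2-fold or more lower (14.4%, background 13.2%). The median log2 difference was -0.08, against -0.07 over all genes. In 18 genes the clusters lay above all 6 other libraries of the first set (20%, background 16.5%), and in 24 they lay below all of them (26.7%, background 25.9%). Against the mean of MEF 1 and 2, 36 chain genes differed by 2-fold or more (40%, background 28.3%). Against the mean of ESC 1 and 2 it was 46 (51.1%, background 37.4%), and 31 of these were lower in the clusters (34.4%, background 23.1%). With a pseudocount of 0.1 the counts against the GFP-negative mean became 23 higher (background 19.8%) and 29 lower (background 28.5%).

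Single subunits stood far out in the clusters. Ndufa6, an accessory subunit of complex I, was at 53.4 RPKM, against 1.26 and 2.12 in GFP-negative cells and 1.71, 3.96, 1.56 and 6.21 in MEF 1 and 2 and ESC 1 and 2. No other library of the first set came near it. Uqcrb was at 21.3 RPKM, above the 9.43 of MEF 2, the next highest. Atp5h, subunit d of the stator stalk of ATP synthase, was at 37.3 RPKM against 18.3 and 3.69 in GFP-negative cells. Ndufa1 was at 20 RPKM against 13.1 and 4.47, and Uqcrfs1 at 19 against 4.06 and 13.1. At the other end, Ndufa3 was at 1.29 RPKM against 16.3 and 7.63, and Cox5b, the zinc-binding subunit of complex IV, at 2.36 against 32.6 and 4.13. Sdhd was at 3.99 against 27.1 and 8.02. Cox7c was at 2.09 against 3.33 and 18, and Uqcr10, a small subunit of complex III, at 4.59 against 20.7 and 11.4. Subunits of the same complex therefore lay at opposite ends, and Cox4i1 (39.4 RPKM) and Cox6a1 (39.7) were as high as in GFP-negative replicate 2, at 32.9 and 42.7. Of the 7 striated muscle markers, Des was at 24.9 RPKM in the clusters, Actc1, Tnnt2, Myh7 and Ckm were at 0, and the part of such cells in these values was not tested.

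Within the second set, most chain genes were higher in the colonies than in MEF 3. Against MEF 3, 86 of 90 chain genes were higher, as were 5485 of all 10647 genes. Of the 90, 31 were 2-fold or more higher (34.4%, background 7.86%), while 1 was 2-fold or more lower (1.11%, background 8.24%). The median log2 difference was 0.70, against 0.01 over all genes tested. The summed level of the 80 subunit and isoform genes was 1697 RPKM in the colonies, 853 in MEF 3 and 1333 in ESC 3. The sum over all genes tested ran in the same order, at 162792, 118422 and 141760 RPKM. By sum, complex V did not stand highest in the colonies, at 505 RPKM there and 528 in ESC 3. Complex II summed to 36.9 RPKM in the colonies, 30.5 in ESC 3 and 21.9 in MEF 3. Its median was 4.74 in the colonies against 6.57 in ESC 3. Both groups are single libraries, so the difference has no replicate check. MEF 3 carried the macrophage marker sum of 188 RPKM, against 20.8 in the colonies and 10.8 in ESC 3, with Lyz2 at 97.2, 2.69 and 0.02 RPKM, and its part in the result was not tested.

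All 11 ubiquitous subunits of complex IV were higher in the colonies than in MEF 3, and 10 of them by 2-fold or more. Their median log2 difference was 1.28, with a range from 0.87 to 1.55. The lowest was Cox4i1, at 70.8 RPKM in the colonies and 38.3 in MEF 3. Cox7c, a small subunit of the membrane part, had the largest difference, at 53.1 against 17.4 RPKM. Cox8a was at 102 against 36.5, Cox6a1 at 119 against 58.2, and Cox6b1 at 25.7 against 10.5. The narrow range of these differences is seen over 11 genes that share 2 libraries.

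The other complexes were higher by less. All 35 complex I subunits were higher in the colonies, 7 by 2-fold or more, with a median log2 difference of 0.68. Ndufa6, at 36.9 against 8.81 RPKM, and Ndufa1, at 22.2 against 7.3, were among these 7. All 8 complex III subunits were higher, 5 of them by 2-fold or more (median 1.13), among them Uqcr11 at 21.3 against 6.4 RPKM and Uqcrq at 53.9 against 21.2. In complex V, 14 of 15 were higher and 5 by 2-fold or more (median 0.74). Complex II had the lowest median, 0.19: Sdhd was at 23.8 against 9.35 RPKM, and Sdhb at 3.61 against 4.33. All 10 assembly factors were above MEF 3 with a median of 0.44, and 1 was past 2-fold, Cox17, the copper chaperone of complex IV, at 4.84 against 0.883 RPKM. Cox6a2 was the gene that was 2-fold or more lower. Since it passed the filter only through MEF 2 and MEF 3, that difference supports nothing.

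**Figure D4:**
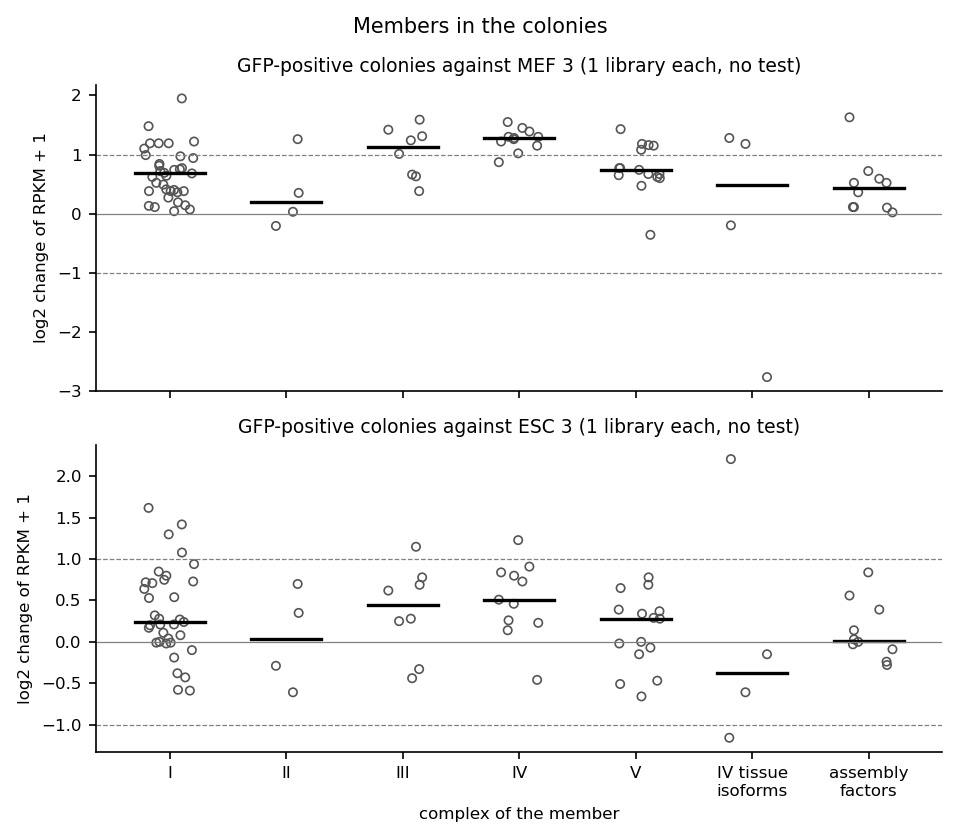
Log2 difference of RPKM + 1 for each tested chain gene (circles) between the colonies and MEF 3 (top) and between the colonies and ESC 3 (bottom), by complex; black bars are medians and dashed lines mark 2-fold. Against MEF 3 all 11 complex IV points lie between 0.87 and 1.55, and against ESC 3 the complex medians lie between 0.03 and 0.51.

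Against ESC 3 the colonies stood closer. Of 90 genes, 7 were 2-fold or more higher (7.78%, background 8.83%) and 2 were 2-fold or more lower (2.22%, background 9.72%). The median log2 difference was 0.26, against -0.12 over all genes. The colonies exceeded both MEF 3 and ESC 3 in 59 chain genes (65.6%, background 25.3%). They lay below both in 3 (3.33%, background 33.9%), which were Atp5o, Cox6a2 and Sdhb. Of these 3, Cox6a2 passed the filter only through MEF libraries, so its place supports nothing. Cox6a1 was at 119 RPKM in the colonies and 50 in ESC 3, and Ndufa6 at 36.9 against 13.2. Ndufa3 was at 44.9 against 17.6, and Ndufa1, an accessory subunit encoded on the X chromosome, at 22.2 against 6.53. The genes that ESC held highest among these 3 libraries included both head subunits of ATP synthase, with Atp5b at 128 RPKM in the colonies and 183 in ESC 3 and Atp5a1 at 68 and 108. Cox6b2 was at 14.6 and 33.8, Ndufv1 at 18.1 and 27.6, and Atp5g1 at 9.4 and 13.4.

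Most chain genes are short, and the difference between the colonies and MEF 3 moved with exonic length across all genes. Of genes with under 1 kb of exon, 32.3% were 2-fold or more higher in the colonies, falling to 18.4% at 1 to 2 kb, 8.71% at 2 to 4 kb and 3.17% at 4 kb or more. Among the chain genes the counts in these classes were 11 of 19, 14 of 33, 4 of 23 and 2 of 14. The median log2 difference was 1.08 for chain genes under 1 kb and 0.73 for all genes of that class, and 0.77 against 0.31 at 1 to 2 kb. The part of gene length in the result was not tested. Against ESC 3 the share under 1 kb was 16.1% of all genes and 3 of 19 chain genes.

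CiPSC lines 6 and 11 were compared with ESC 4 on the scale taken as exonic. Levels set between genes there rest on that inferred scale. Atp5b was the highest of the 94 genes in all 3 libraries, at 345 RPKM in line 6, 348 in line 11 and 347 in ESC 4. Atp5a1 followed at 200, 197 and 178, then Atp5g3 at 149, 151 and 174 and Cox4i1 at 140, 137 and 161. In ESC 4 the median level was 23.4 RPKM for complex I subunits, 31.4 for complex II, 49.2 for complex III, 59.2 for the ubiquitous subunits of complex IV and 65.8 for complex V. In line 6 these medians were 23.2, 28.9, 57, 80.8 and 64.2. Assembly factors were lower, with a median of 4.66 RPKM in ESC 4. Complex I, which has the most subunits, had the lowest level per gene of the 5 complexes in both libraries.

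Between CiPSC and ESC 4, limma called 0 of 90 chain genes and 0.31% of all genes. This contrast sets 2 lines against 1 library, with the spread pooled over all groups. The SE was 1.09 for Cox5b, so a count of 0 shows little. At an unadjusted p under 0.05 it was also 0 of 90, against 6.45% of all genes. The log2 changes ran from -0.50 to 0.78, and 72 of 94 genes lay within 1.25-fold of ESC 4, a count not made over all genes. The test pools its spread over all groups, so differences of this size could not be told from 0: the largest log2 change, of Ndufs5 (an accessory subunit of complex I), was 0.78 with an SE of 0.41. Ndufs5 was at 18.8 and 22.1 RPKM in the lines and 11.4 in ESC 4. The 2 lines lay within 10% of one another for 78 of 90 genes (86.7%, background 67.9%).

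The ubiquitous complex IV subunits leaned upward in the lines, with 10 of 11 estimates above 0 (5689 of all 10647 genes were) and a median of 1.28-fold. Cox7a2 was at 50.1 and 50.9 RPKM against 32.6 in ESC 4, Cox7c at 80.8 and 87 against 59.2, and Cox6b1 at 84 and 87.9 against 61.8. Both lines stood above ESC 4 for each of these. Cox4i1 was the subunit below it in both lines, and Cox5a was at 127 and 120 RPKM against 122. None passed the test. Cox6b2 was at 18.1 and 17.3 RPKM in the lines against 10.5 in ESC 4. Cox7b2, a testis isoform, was at 0.0513 and 0.0604 RPKM in the lines and 1.17 in ESC 4, the widest difference of the 94 genes, and it did not pass the filter on low values.

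**Figure D5:**
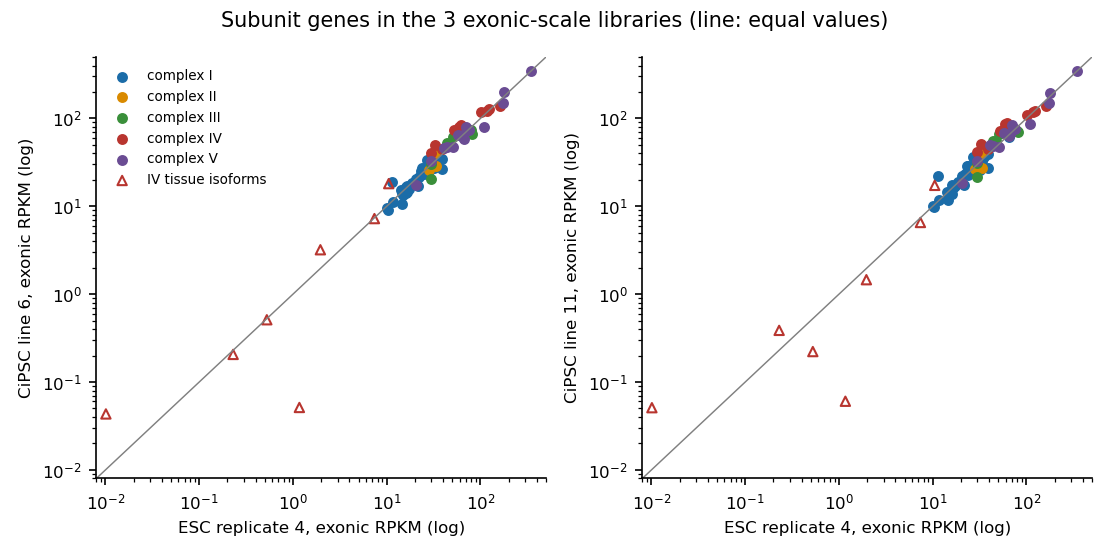
Exonic RPKM (log axes) of subunit genes in CiPSC line 6 (left) and line 11 (right) against ESC replicate 4, coloured by complex, with complex IV tissue isoforms as open triangles and the line of equal values. Most points lie along the line, from 10 RPKM in complex I to Atp5b at 347 RPKM in ESC 4, and the triangle far below it is Cox7b2.

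Atp5o, which joins the stator stalk to the head of ATP synthase, differed more than any of the other ubiquitous subunits named here between the scales. It was at 74.5, 74.8 and 75 RPKM in the exonic libraries, and at 0.307 to 1.06 RPKM in the 10 gene-span libraries. Its span was not matched in the annotation used, so its gene-span values were not compared with other genes.

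The genes around the chain were read from 7 lists. Of the 17 genes for mitochondrial transcription and biogenesis, 15 were tested, all 15 had estimates above 0 in ESC against MEF (6443 of all 10647 genes did), and 3 were called higher (background 8.97%): Esrrb, a nuclear receptor of pluripotent cells, Pprc1, a coactivator, and Tfam, which packages and transcribes mitochondrial DNA. Tfam was at 1.58, 2.55 and 1.38 RPKM in MEF and 5.93, 5.33 and 4.31 in ESC, without overlap (log2 change 1.14, SE 0.31, limma adjusted p 0.0272). The list's median log2 change was 0.42, against 0.14 over all genes. Against GFP-negative cells 4 were higher (background 14.8%), the same 3 and Gabpa, the DNA-binding part of a factor of many mitochondrial promoters. In GFP-negative cells against MEF 1 was higher (background 4.09%), the mitochondrial helicase gene Peo1. In the colonies 0 of the 15 genes was 2-fold or more above MEF 3 (background 7.86%), and all 15 lay below ESC 3, as did 6416 of all 10647 genes.

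Other mitochondrial lists changed in single genes, and the background for ESC against MEF was 8.97% higher and 9.33% lower. Of 15 citrate cycle and pyruvate dehydrogenase genes, 1 was higher in ESC than in MEF: Pdhb, at 2.69, 4.33 and 4.57 RPKM in MEF and 9.08, 8.01 and 11.5 in ESC. Of 8 genes of uncoupling and the pyruvate switch, 3 were higher, Pdk1, Ldhb and Hk2. Pdk1, the kinase that turns pyruvate dehydrogenase off, was at 0.102, 0.41 and 0.587 RPKM in MEF and 8.79, 9.16 and 2.74 in ESC (log2 change 2.41, SE 0.34, limma adjusted p 0.00209). No gene was called among 21 assembly factors outside the symbol rule, 7 carriers and channels of the inner and outer membrane, 9 coenzyme Q genes, or Cyc1 and Cycs, against 18.3% of all genes called in either direction. Against GFP-negative cells (background 14.8% higher and 9.35% lower), ESC were higher in the assembly factors Sco1, Oxa1l and Ecsit and in Vdac1 and Slc25a5, which exchange metabolites and adenine nucleotides. Coq7, of coenzyme Q synthesis, was lower in ESC than in GFP-negative cells, which were at 1.79 and 3.11 RPKM against 0.0889 and 0.254 in MEF 1 and 2. Of the citrate cycle genes, Pdhb and Idh3a were higher and Dlst was lower in ESC than in GFP-negative cells, and Pdk1 and Hk2 were higher too. In GFP-negative cells against MEF (background 4.09% higher and 5.05% lower), Idh3b, Ldhb and Coq7 were higher and Idh3a was lower.

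Promoters of chain genes are known to carry sites of NRF1, ETS-family factors and YY1. RefSeq windows (GRCm38.p6) from 250 bases before to 50 after the start were matched for 74 of the 94 genes, giving 80 windows, and letters were searched on both strands. The NRF1 letters, GCGCA, any base and then GCGC, were in 23.8% of chain windows and 4.6% of all 32851 windows of this length. The ETS letters CCGGAAG were in 23.8% and 8.86%, and the YY1 letters AAGATGGC in 13.8% and 2.75%. The median difference of colonies to MEF 3 was 0.73 on the log2 scale for the 18 tested genes with the NRF1 letters and 0.72 for the 55 without. A match is a description of these letters and not a bound site.

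The 250 bases before the start are shown for complex IV genes of the comparisons above and for Atp5k, a small membrane subunit of ATP synthase; capitals mark NRF1 or ETS letters on either strand. Cox6a1 (chr5:115348959-115349208, minus strand) holds both kinds, and Atp5k (chr5:108434400-108434649, minus strand) holds NRF1 letters. Cox6b1 (chr7:30626115-30626364, minus strand) holds ETS letters, while Cox6b2 (chr7:4753095-4753344, minus strand), its testis isoform that was higher in ESC, holds none. Cox7c (chr13:86046796-86047045, minus strand), which of the ubiquitous complex IV subunits had the largest difference between the colonies and MEF 3, holds none either.
Cox6a1: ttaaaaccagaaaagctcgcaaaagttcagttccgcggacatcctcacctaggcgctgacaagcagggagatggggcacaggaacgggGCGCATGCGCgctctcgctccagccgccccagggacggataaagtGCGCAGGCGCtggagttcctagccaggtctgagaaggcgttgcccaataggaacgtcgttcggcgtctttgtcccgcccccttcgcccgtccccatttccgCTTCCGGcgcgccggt
Atp5k: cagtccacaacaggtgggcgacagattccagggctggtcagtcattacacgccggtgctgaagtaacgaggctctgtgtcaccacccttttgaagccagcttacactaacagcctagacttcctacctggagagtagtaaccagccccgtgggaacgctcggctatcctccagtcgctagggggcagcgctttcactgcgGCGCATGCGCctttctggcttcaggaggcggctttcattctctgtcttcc
Cox6b1: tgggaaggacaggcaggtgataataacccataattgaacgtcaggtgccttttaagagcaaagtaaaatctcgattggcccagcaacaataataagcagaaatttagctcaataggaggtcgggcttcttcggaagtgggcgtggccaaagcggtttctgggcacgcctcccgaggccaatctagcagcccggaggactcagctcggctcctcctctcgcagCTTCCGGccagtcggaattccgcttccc
Cox6b2: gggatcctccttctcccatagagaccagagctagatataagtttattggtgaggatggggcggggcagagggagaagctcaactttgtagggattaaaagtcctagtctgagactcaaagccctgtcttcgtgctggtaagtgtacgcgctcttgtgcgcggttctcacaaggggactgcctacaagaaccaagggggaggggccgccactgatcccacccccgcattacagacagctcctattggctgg
Cox7c: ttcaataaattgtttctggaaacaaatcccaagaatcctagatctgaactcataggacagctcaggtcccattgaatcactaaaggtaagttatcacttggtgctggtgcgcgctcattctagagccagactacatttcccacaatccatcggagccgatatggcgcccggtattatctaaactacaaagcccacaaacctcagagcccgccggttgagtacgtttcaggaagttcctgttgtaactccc
Atp5k was at 2.59 RPKM in MEF 3, 6.61 in the colonies and 6.63 in ESC 3. In the first set its libraries ran from 1.45 RPKM in GFP-negative replicate 2 to 19.8 in ESC 2, and ESC 1 was at 1.75.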

How the data were processed

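Total RNA was sequenced in 13 libraries. The deposited table holds RPKM values as the authors computed them, in 1 column for each library, per the file headers. Per the submitters' processing notes, reads were handled with TopHat 1.3.0 and the build was mm9. How reads were counted, on which gene models and strand, and what was done with reads shared by processed copies of chain genes, is not given in the sources used here. Of 15184 rows, 8 that shared 1 identifier were left out.

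Library sets were read from the values: exact 0 (first), 0.001 in its place (second), or neither of them (the third). Spans and exonic lengths came from GENCODE vM21 for 14996 genes (98.8%), with no coordinates taken from it. In 10 libraries RPKM times span gave whole multiples of 1 read for 81.6 to 83.8% of low values (tolerance 0.05), which gave the depth. In the third set, exonic lengths gave whole multiples for 8.53% (CiPSC 6), 6.63% (CiPSC 11) and 8.97% (ESC 4) of low values. The read steps therefore did not show its scale. Summed over genes, RPKM times length gave 2.92 to 2.96 reads per library read with spans and 0.508 to 0.51 with exonic lengths. The length scales are inferred, not labelled.

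Tests used R 4.3.3 and limma 3.58.1 on the 13 libraries together, with a mean for each group, a library-set term, a trend in the prior variance, a pseudocount of 1, and 5 residual degrees of freedom (prior 2.59). The code was tested on simulated data. Errors are standard errors of log2 changes, which understate the change of low genes. Clusters and colonies, with 1 library each, were described without a test.

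Values by library were given for complex II, core subunits, isoform pairs and, per comparison and complex, up to 3 called genes in each direction. For single libraries they were given for up to 5 genes with the largest rise and fall at 10 RPKM or more. Values of 1 gene under these rules are not reported here. Further genes were named after their values were seen. The genes and lists were chosen with earlier results of these data known. Alternatives covered library terms, pseudocount, filter, scaling, threshold, replicate block and leaving out each library.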

Additional observations from a re-analysis of the deposited data

How the results depend on the processing

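The number of called chain genes depended on the fit most for GFP-negative cells. Shares over all genes in these fits are not given here, so the counts are not read against a background. ESC against MEF had 8 calls. It had 3 without the library-set term, 3 within the first set, 13 with no minimum change, and 5 to 12 when single libraries were left out. GFP-negative cells against MEF had 6. It had 3 with a length-scale term alone, 0 by limma without any term (2 of 90 with an unadjusted p under 0.05), 1 with the 10 gene-span libraries, 1 within the first set, and 1 to 21 when single libraries were left out. ESC against GFP-negative cells had 9. It had 5 without the term, 14 and 15 with pseudocounts of 0.1 and 0.01, and 7 to 34 when single libraries were left out. CiPSC against ESC had 0 calls in limma and 1 with no filter on low values (Cox7b2, against the single library ESC 4). The cause was not tested.

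With the replicate number as a block the counts were 8, 7, 12 and 0. Same-numbered libraries did not deviate together (correlations of -0.04, -0.07 and 0.08), so the numbers pair nothing. In the clusters, members 2-fold or more above and below the GFP-negative mean numbered 13 and 13, then 23 and 29 with a pseudocount of 0.1, and 24 and 31 with 0.01, alternatives chosen after seeing the data. Of 547 recomputed values for the called genes, 434 kept the call, 113 lost it and 0 changed direction. Estimated reads were fewest in GFP-negative replicate 1 and the clusters, at about 100 for the median chain gene. The part of read number in the precision was not tested.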
